A study of Drosophila melanogaster with 23 samples.

Results

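Sorted PDF neurons of the Drosophila melanogaster larval brain were compared with larval brain cells sorted by the Elav driver. The comparison rests on 6 of the series' 23 arrays, the 3 titled as Pdf cells from larva and the 3 titled as Elav cells from larva, and it was read across all genes. Each array was a one-colour Affymetrix array hybridised with RNA from 1 sample. The Pdf samples were GFP-positive brain cells of the Pdf-Gal4;UAS-GFP line, in which Gal4 made under the Pdf promoter switches on GFP. The Elav samples were GFP-positive brain cells of the Elav-Gal4;UAS-GFP line, whose driver is active in neurons in general. Larvae of both lines were kept in cycles of 12 h light and 12 h dark, about 50 heads per sample were dissected around Zeitgeber time 12, when the lights go off, and fluorescent cells were picked by hand after protease treatment. Each sample therefore pools cells of many animals. Amplification started from between 0.1 and 0.4 ng of RNA and took 2 rounds with T7 polymerase. Where the comparison needed a reference, 3 further groups of 3 arrays were used: adult large Pdf cells from Pdf-Gal4;UAS-GFP, adult Elav cells from Elav-Gal4;UAS-GFP, and larval cells of the Tim-Gal4;Pdf-Gal80;UAS-YFP line, called Tim without Pdf here. In that line Gal80, a repressor of Gal4, is made in the PDF neurons. These 3 groups had the same light cycle, Zeitgeber time and number of heads per sample as the larval Pdf and Elav groups. The labels call the samples biological replicates without naming separate cultures or animals. The p-values therefore cover only the spread among the arrays, which may be technical.

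PDF neurons are clock neurons that release the neuropeptide PDF, through which they set the phase of other clock neurons. Their molecular clock is a feedback loop in which CLK and CYC activate per and tim, whose protein products enter the nucleus and block CLK and CYC. In the larval brain the PDF-producing lateral neurons are already differentiated and run a clock, whereas the larval brain around them still holds dividing neuroblasts and newly born neurons.

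Values are GCRMA log2 values, and 5 was taken as the limit of detection. A gene was called where limma's Benjamini-Hochberg adjusted p was under 0.05 over the 7670 genes tested and the fold was at least 2. Folds against values under 5 are given as "at least", with each such value raised to 5. Fitted log2 differences, their SEs and list medians use the values as deposited, so their size is not exact where a group lies under 5. A median is also given with values raised to 5 where that moves it by over 1.5 times. In these bulk samples fewer cells of a type and less RNA per cell cannot be told apart.

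Between 5196 and 5849 genes lay above 5 on each of the 6 arrays. The 3 Elav arrays correlated with each other at r = 0.919 to 0.966 over the genes tested, and the 3 Pdf arrays at 0.846 to 0.893. Between the groups r ran from 0.697 to 0.795, highest for Elav replicate 1 and Pdf replicate 2. These are correlations across genes, which are not independent replicates. Part of the glial markers, and on a pair of arrays many hemocyte markers, lay higher on the Pdf arrays. For 14 glial markers with a probe set, the log2 of the summed level was 11.11 to 12.02 on the Elav arrays and 12.73 to 13.88 on the Pdf arrays. Of the 12 tested, 7 were called higher and 5 were not called, the lowest being nrv2 at -0.60. The median difference was 1.93, or 0.69 with values raised to 5. The astrocyte gene alrm, called higher, read 8.24, 7.30 and 11.65 on Pdf replicates 1, 2 and 3 and under 5 on all 3 Elav arrays. The glial transcription factor repo lay at 5.12, 7.61 and 4.39 on the Pdf arrays. Without Elav replicate 2 or Pdf replicate 2 the count of glial genes called fell to 3, and without Elav replicate 1 or 3 to 4. For 14 hemocyte (blood cell) markers with a probe set the summed level was 13.80 and 13.24 on Pdf replicates 1 and 2, but 9.72 on replicate 3, within the Elav range of 9.48 to 11.07. The hemocyte gene Hml read 11.91, 9.69 and 2.14 on those 3 arrays. Of 13 hemocyte genes tested 6 were called higher, and 10 without Pdf replicate 3. The lowest, crq, lay at -0.58 and was not called. The steroid and juvenile hormone enzymes used as ring gland markers lay under 5 on all 6 arrays. Of the muscle markers 1 of 8 was called higher (12.5%), and of the photoreceptor markers 1 of 7 in each direction (14.3%). These shares lie near the 13.3% called higher and 12.8% called lower over all genes tested. The photoreceptor count higher fell to 0 without Pdf replicate 2 or 3. The count lower fell to 0 in every fit without 1 array except that without Elav replicate 2. Of the fat body markers 1 of 4, Mtp, was called lower, a call lost in 4 of the fits without 1 array. The part of glial and blood cell RNA in the results that follow was not tested.

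**Figure D1:**
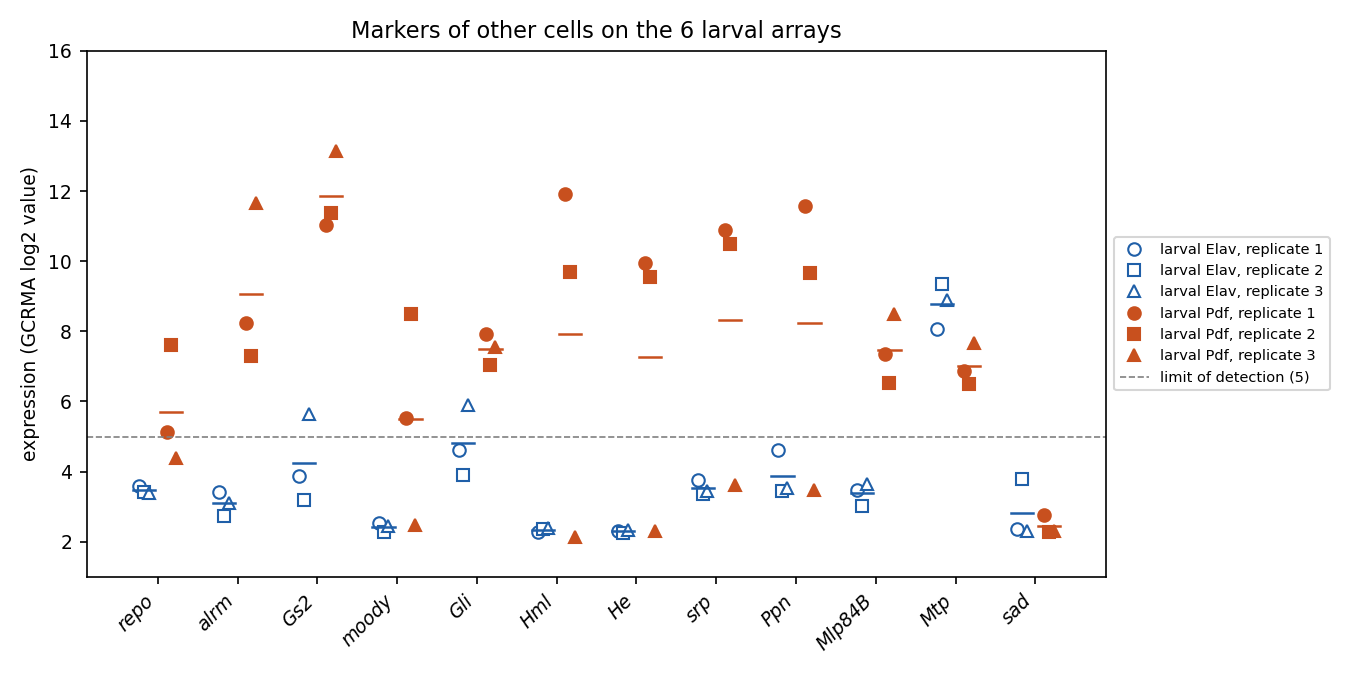
GCRMA log2 value (vertical axis) of glial markers (repo, alrm, Gs2, moody, Gli), hemocyte markers (Hml, He, srp, Ppn), and a muscle (Mlp84B), fat body (Mtp) and ring gland (sad) marker on each larval array. Open blue symbols are Elav arrays, filled orange symbols Pdf arrays, short lines group means and the dashed line the limit of detection. Hml, He, srp and Ppn are high on Pdf replicates 1 and 2 and under 5 on replicate 3, and Gs2 is above 11 on all 3 Pdf arrays.

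The larval Elav arrays held replication and mitosis genes at median levels of 10.62, 11.49 and 11.11, and synaptic genes at 5.90, 4.01 and 5.62. On the Pdf arrays these medians were 8.87, 8.48 and 7.56, and 9.01, 9.93 and 10.39. Rises and falls are relative to that Elav profile. Of the genes tested, 26% were called different between the larval Pdf and the larval Elav cells. Of these 1017 were called higher in the Pdf cells (13.3%) and 979 lower (12.8%). Values of the 3 Pdf and 3 Elav arrays did not overlap for 37.4% of genes, with the Pdf arrays higher for 16.3% and lower for 21.1%, and the median difference over all genes was -0.11 on the log2 scale. Among the genes called higher, 460 lay under 5 on all 3 Elav arrays. Among those called lower, 179 lay under 5 on all 3 Pdf arrays. A total of 80 higher and 77 lower calls came to less than 2-fold once values under 5 were raised to 5. Leaving out Elav replicate 2 gave 1294 calls in place of 1996, of which 563 were lower. The count called lower was 609 without Elav replicate 3 and 1505 with array weights, and over the settings run the share of calls that were higher ran from 43.9% to 61%. Fitting the 6 arrays without the other arrays gave 1173 calls, where 31 of the 134 called genes named below were not called. In every one of the 6 fits that leave out 1 array, 642 of the higher and 428 of the lower genes were called.

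Pdf itself stood furthest from the Elav cells. It read 14.47, 14.71 and 15.31 on the 3 Pdf arrays and 2.98, 2.89 and 3.02 on the Elav arrays. Every Pdf array was near the top of the scale and every Elav array under detection, at least a 910.2-fold difference (log2 difference 11.86 ± 0.50 SE, adjusted p = 9.12e-12). This checks the labels of the sorted cells. The gene of the other driver, elav, which encodes an RNA-binding protein of neurons, read 12.31, 12.72 and 12.30 on the Pdf arrays and 12.93, 10.52 and 11.22 on the Elav arrays. Both groups held it well above detection, the groups overlapped, and elav was not called (difference 0.89 ± 0.49, adjusted p = 0.201). Other pan-neuronal markers differed, as nSyb and fne were called higher in the Pdf cells. The call of fne was lost in 5 of the fits without 1 array. A similar elav level therefore does not make the groups alike in neuronal genes.

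All 8 core clock genes were called higher in the larval PDF neurons, with a median log2 difference of 6.06. The repressors of the loop were led by tim, at 13.35, 13.98 and 13.78 against 3.69, 2.34 and 2.77, at least 416.5-fold higher (difference 10.77 ± 0.53, adjusted p = 7.61e-11). Its partner per read 8.87, 9.95 and 10.30 against 3.03, 4.28 and 3.38, at least 26.1-fold higher. Neither gene was detected on an Elav array. Among the activators, Clk read 8.59, 10.29 and 11.17 against values under 3, at least 32.4-fold higher. Its partner cyc read 9.15, 7.68 and 8.23 against 4.47, 4.18 and 7.71, where Elav replicate 3 lay within the range of the Pdf arrays. The call of cyc (difference 2.90 ± 0.77, adjusted p = 0.00947) was lost without Elav replicate 2.

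The genes of the second loop were detected in the Elav cells as well. The repressor vri was at 13.51, 14.13 and 14.45 against 9.26, 8.42 and 7.81, a 46.2-fold difference. The activator Pdp1 was 63.2-fold higher (difference 5.98 ± 0.50), and the repressor cwo 37.9-fold (5.24 ± 0.59). In all 3 the groups lay apart, and all 3 Elav arrays were above 5. cry, which encodes the blue-light receptor of the clock, was at 8.84 on Pdf replicate 1, at 12.08 and 12.55 on replicates 2 and 3, and under 5 throughout the Elav arrays, at least 71.1-fold higher. On Pdf replicate 1, per, tim, Clk, cry, vri, Pdp1 and cwo had their lowest value of the 3 Pdf arrays.

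**Figure D2:**
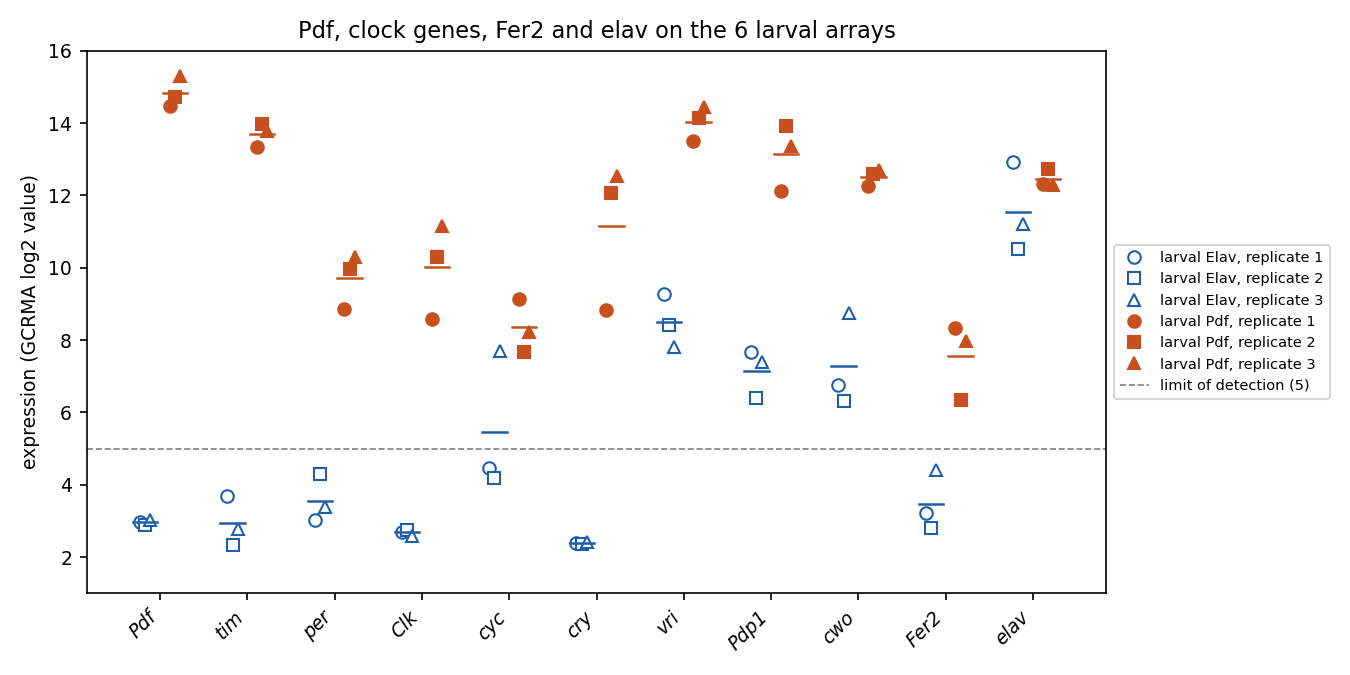
GCRMA log2 value (vertical axis) of Pdf, the 8 core clock genes, Fer2 and elav on each larval array. Open blue symbols are Elav arrays, filled orange symbols Pdf arrays, short lines group means and the dashed line the limit of detection. Groups overlap for cyc and elav and are apart for the other genes shown.

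The tested factors that modify or degrade clock proteins did not follow the loop genes. Of 12 such genes 7 were tested, with dco the only kinase. The kinase genes sgg, CkIIalpha, CkIIbeta and nmo and the phosphatase gene mts had no probe set matched to them alone. Of the 7 tested, 0 were called in either direction by limma. Their differences ran from -1.29 for slmb, a ubiquitin ligase component, to 0.27 for wdb, a phosphatase subunit. At an unadjusted p under 0.05, 0 lay higher and 1 lower, and without Elav replicate 1 or Pdf replicate 1 the count called lower was 1. The median was -0.03, and 0.13 after scaling all arrays to a common median. Among transcription factors of clock neurons, 4 of the 8 tested were called higher and 0 lower. Hr51 (unfulfilled), a nuclear receptor needed for PDF neuron development, read 9.63, 9.77 and 10.61 against values under 5, at least 32.0-fold higher. Fer2, a bHLH factor needed for PDF neurons to form, read 8.35, 6.33 and 7.98 against 3.23, 2.80 and 4.40, at least 5.86-fold higher (adjusted p = 0.000138). Hr38, an activity-regulated nuclear receptor, was at least 20.4-fold higher and kay (Fos) 5.36-fold higher. The eye determination factor so was at 6.06, 3.10 and 4.35 against 5.17, 5.04 and 7.03, and was not called.

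Among genes whose groups did not overlap, with values under 5 raised to 5, the largest rises after Pdf and tim included several genes known only by their CG numbers. 7B2, the chaperone of the peptide-cleaving enzyme encoded by amon, read 13.78, 14.37 and 14.54 against 7.86, 5.60 and 5.43, a 245-fold difference. IA-2, a dense core vesicle membrane protein, rose at least 188-fold, Pal2, a peptide-amidating enzyme, at least 181-fold, and CanB, the regulatory subunit of calcineurin, at least 180.1-fold. For these 4 genes Elav replicate 1 was the highest Elav array, with IA-2 at 9.80 there and at 3.72 and 4.71 on the others. CG4577, CG2269 and CG12290 read above 11 on every Pdf array and under 5 on every Elav array, with folds of at least 242, 240.0 and 196. The leucine-rich repeat gene 2mit rose at least 189-fold, the bHLH repressor hry (hairy) at least 135-fold, and the sodium pump subunit nrv3 at least 128-fold. CG31140, Sidpn and CG7607 completed the 15 genes ranked highest in this way, at least 139-fold, 127-fold and 127-fold.

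Most tested genes for making and releasing neuropeptides were called higher, though their count depended on the arrays fitted. Of 14 genes of peptide processing and dense core vesicles 11 were tested and 9 were called higher, with 0 lower. The median difference was 2.68, or 1.70 with values raised to 5. The count was 6 to 8 without 1 array, and 7 after quantile normalisation. It was 4 when the larval Pdf and Elav arrays were fitted alone. Sytbeta, 1 of the 9, came to 1.69-fold with values raised to 5. The prohormone convertase amon read 10.62, 9.90 and 10.46 against 5.06, 4.21 and 3.36, at least 39.5-fold higher with 1 Elav array above detection. The lowest member was Fur2, a furin protease, at -0.87 and not called. In the peptide precursors themselves the pattern was narrower. Of 41 precursors 26 were tested, 5 were called higher and 1 lower, and the median difference was 0.31, or 0.00 with values raised to 5. These are 19.2% and 3.8%, against 13.3% and 12.8% of all genes tested. Beside Pdf, the rises were in ITP, the ion transport peptide, Nplp1, Nplp2 and Gpb5, a glycoprotein hormone subunit. Nplp2 read 14.44 and 14.34 on Pdf replicates 1 and 2 but 6.99 on replicate 3, the same division as the hemocyte markers. Gpb5 read 8.55, 8.29 and 9.76 against 3.83, 5.50 and 3.89, with all Pdf arrays above all Elav arrays. ETH, the ecdysis-triggering hormone gene, fell at least 11.0-fold, from 7.65, 8.55 and 9.19 on the Elav arrays to 4.99, 4.67 and 3.57. The count of rises was 3 without Pdf replicate 3, and the calls of ITP and Nplp1 were lost in 5 and 2 of the 6 fits without 1 array.

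Synaptic genes rose across the release machinery. Of 25 genes of synaptic vesicles and active zones 20 were tested, 16 were called higher and 0 lower, with a median difference of 4.76. The small GTPase Rab3 read 11.54, 12.90 and 13.43 against 6.67, 2.84 and 5.75, at least 112-fold higher. The vesicle SNARE nSyb rose at least 101-fold and the active zone scaffold Rim at least 87.9-fold, from under 5 on all Elav arrays in the case of Rim. The vesicle-transporting kinesin unc-104 was detected on all Elav arrays and rose 40.6-fold. Liprin-alpha had the lowest difference, at -0.70, and was not called. The count was 15 or 16 in every fit that left out 1 of the 6 arrays.

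Ion channels showed the same direction. Of 32 voltage-gated, potassium and leak channel genes 26 were tested, 17 were called higher and 0 lower, with a median of 3.39, or 2.02 with values raised to 5. The calcium-activated potassium channel SK read 10.72, 11.48 and 12.38 against values under 4, at least 92.2-fold higher (difference 7.83 ± 0.45, adjusted p = 8.5e-10). Ih, the hyperpolarisation-activated cation channel, rose at least 63.1-fold, the inward rectifier Irk1 at least 40.1-fold and the Shaker channel Sh at least 28.1-fold. Elk, another potassium channel, lay at -0.75 and was not called.

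Transmitter receptors rose with them. Of 22 ionotropic receptor genes 16 were tested, 12 were called higher and 0 lower (median 3.77, or 2.29 with values raised to 5). They covered the acetylcholine, GABA and glutamate families. The GABA receptor Rdl read 9.30, 11.17 and 12.01 against 8.72, 3.24 and 2.83, at least 24.0-fold higher with Elav replicate 1 far above the other Elav arrays. The nicotinic subunits nAChRbeta1 and nAChRalpha2 rose at least 21.6-fold and 13.98-fold, the NMDA receptor Nmdar1 at least 18.8-fold and the kainate-type receptor KaiR1D at least 17.7-fold, the last of these not called without Elav replicate 2. The histamine receptor ort had the lowest difference, at 0.02. Among 12 amine and metabotropic receptors tested, 3 rose: DopEcR, a receptor for dopamine and ecdysone, at least 73.5-fold, the serotonin receptor 5-HT1A at least 61.7-fold, and the octopamine receptor Octbeta1R at least 3.79-fold. The count was 5 without Pdf replicate 1, and Octbeta1R was lost in 3 of the 6 fits without 1 array.

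The receptor for PDF was among 4 of 13 neuropeptide receptors called higher. Pdfr read 5.61, 7.71 and 8.50 against 2.35, 2.36 and 2.37, at least 4.84-fold higher (difference 4.91 ± 0.50, adjusted p = 7.31e-07). The receptors for short neuropeptide F (sNPF-R), neuropeptide F (NPFR) and the diuretic hormone DH31 (Dh31-R) rose at least 20.5-fold, 14.5-fold and 2.55-fold. All 4 lay under 5 on every Elav array. Genes of transmitter synthesis and transport gave a less settled count. Of 15 tested 7 were called higher, among them Eaat2 (glutamate transporter family), ChT (choline transporter), Ddc (dopa decarboxylase) and Vmat (vesicular monoamine transporter). That number was 3 without Elav replicate 2 and 4 without Elav replicate 3 or Pdf replicate 1, and the calls of ChT and Vmat were lost in 4 and 2 of the fits without 1 array. Gad1, the GABA-synthesising enzyme, read 10.60 on Pdf replicate 1, under 5 on the other 5 arrays, and was not called.

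**Figure D3:**
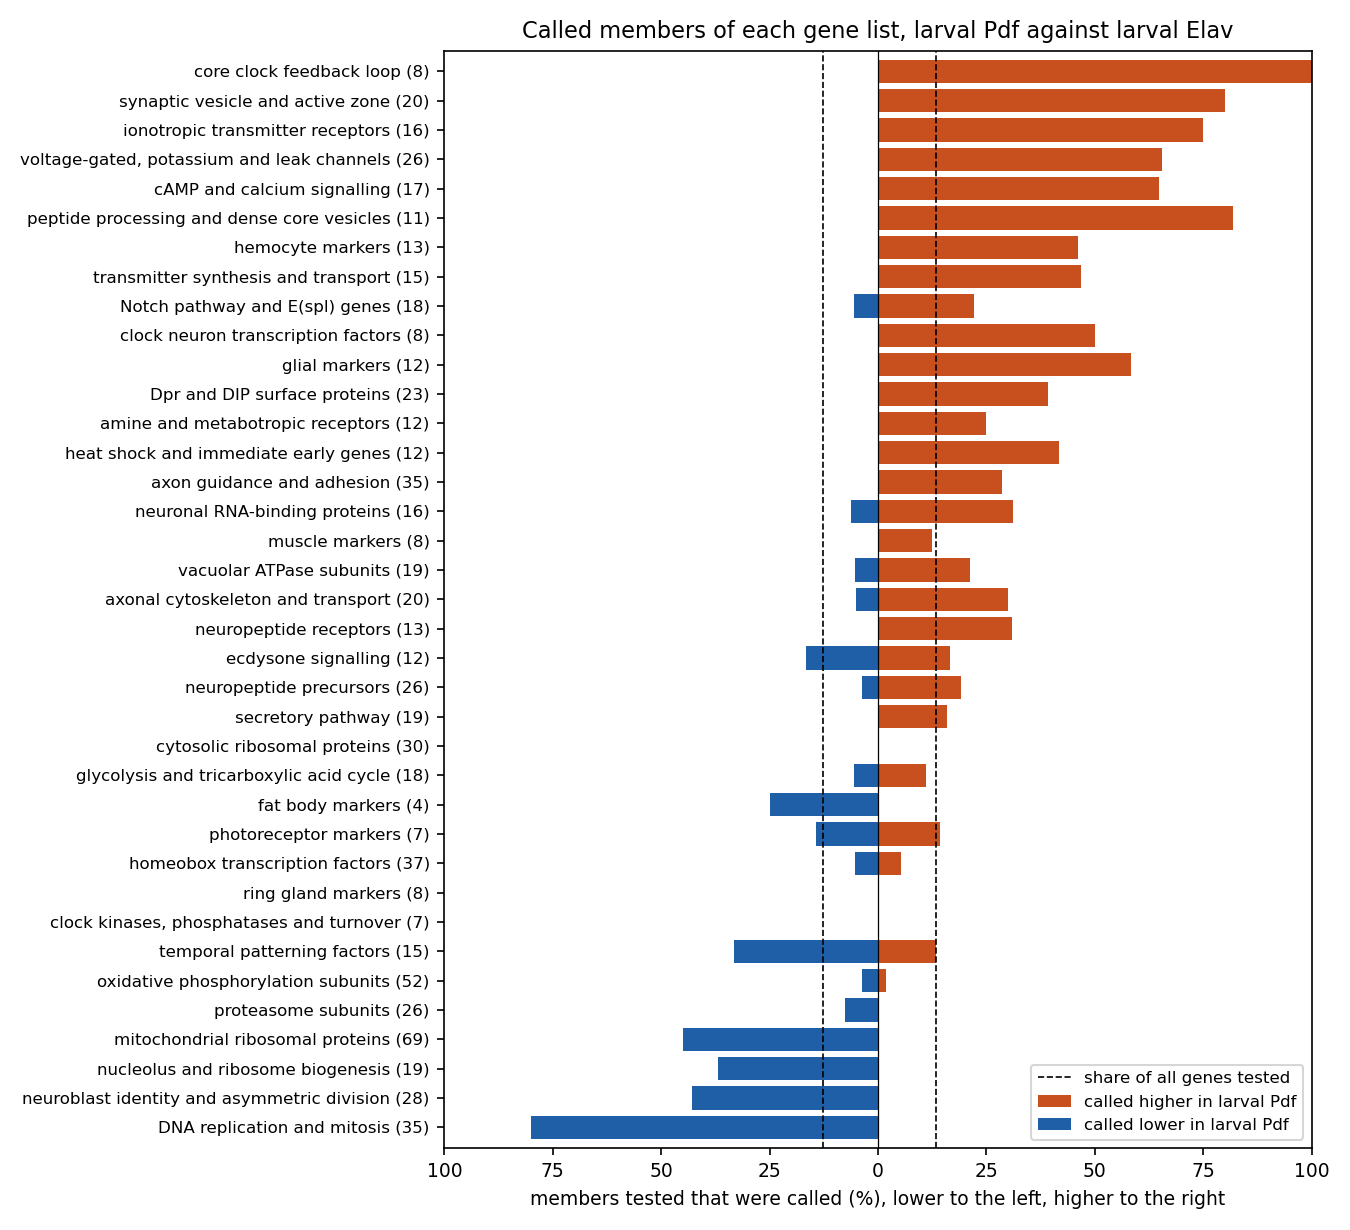
Share of the tested members of each of 37 gene lists (number tested in brackets) that was called in larval Pdf against larval Elav, in percent. Orange bars to the right are members called higher, blue bars to the left members called lower, and the dashed lines mark the 13.3% and 12.8% of all genes tested. Core clock, peptide processing, synaptic and channel genes extend to the right, replication, neuroblast and mitochondrial ribosomal genes to the left.

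Second messenger genes followed the receptors. Of 17 cAMP and calcium signalling genes tested 11 were called higher and 0 lower (median 3.16), CanB first among them. The cAMP phosphodiesterase dnc was at 10.20, 9.72 and 11.03 against 6.46, 6.08 and 7.43, a 12.7-fold difference. Pde8, another phosphodiesterase, rose 8.99-fold and the adenylyl cyclase Ac13E 8.91-fold. The calcium-responsive cyclase rut had the lowest difference of the list, at -1.95, and was not called.

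Surface proteins that neurons use to recognise their partners were called higher in part. Of 30 Dpr and DIP genes, an interacting family of immunoglobulin proteins, 23 were tested, 9 were called higher and 0 lower (median 1.87, or 0.84 with values raised to 5). dpr7 read 9.71, 8.98 and 8.99 against values under 4, at least 18.7-fold higher. dpr19, dpr9 and dpr11 rose at least 25.4-fold, 20.4-fold and 7.38-fold, whereas dpr18 lay at -1.20 and was not called. Of 35 axon guidance and adhesion genes tested 10 were called higher and 0 lower (median 1.23, or 0.68 with values raised to 5). The presynaptic adhesion protein Nrx-1 read 10.49, 10.27 and 11.51 against 4.66, 5.53 and 6.88, at least 30.9-fold higher. Nlg2, a neuroligin, rose at least 22.2-fold, the immunoglobulin protein kirre at least 24.1-fold and the leucine-rich repeat protein Con at least 22.9-fold. The netrin receptor fra lay at -1.69 and was not called. Without Elav replicate 2 the guidance and adhesion count was 6.

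Genes of the mature axon and of neuronal RNA processing moved in part. Of 20 cytoskeleton and transport genes tested 6 rose and 1 fell (median 0.62). The microtubule protein tau read 9.54, 8.61 and 10.25 against 3.66, 2.92 and 3.34, at least 22.1-fold higher. futsch, the fly MAP1B, rose at least 25.7-fold and the ankyrin Ank2 at least 18.5-fold, the latter lost without Elav replicate 2. betaTub60D, a developmental tubulin, lay at -1.88 and was not called. Of 16 neuronal RNA-binding proteins tested 5 rose (31.2%) and 1 fell (6.2%). cpo rose at least 43.0-fold and Rbp6 at least 28.7-fold, and the ELAV family member fne rose 9.15-fold, a call lost in 5 of the 6 fits without 1 array. Syp, which fell, is described with the temporal factors.

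Among heat shock and immediate early genes 5 of 12 were called higher and 0 lower. The chaperone cofactor stv (starvin) read 11.39, 10.39 and 11.32 against 3.41, 3.72 and 4.72, at least 65.5-fold higher, and Jra (Jun) rose at least 15.99-fold. Hsp27 lay at -0.84 and was not called. Of the proton pump (V-ATPase) subunits, which acidify synaptic and secretory vesicles, 4 of 19 rose and 1 fell (median 0.74). These are 21.1% and 5.3%, against 13.3% and 12.8% of all genes tested. Vha36-1 rose 5.06-fold, VhaAC45 4.74-fold and Vha16-1 2.51-fold. Of 19 secretory pathway genes 3 were called higher and 0 lower. That is 15.8% higher, near the 13.3% of all genes tested. The 3 were TRAM, Sec31 and Hsc70-3, at 2.95-fold, 2.85-fold and 2.08-fold. The count was 1 when the larval Pdf and Elav arrays were fitted alone. Vha16-1, Sec31 and Hsc70-3 each lost the call without at least 1 of the 6 arrays.

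The genes lower in the PDF neurons were led by the cell cycle. Of 48 genes of DNA replication and mitosis 35 were tested, 28 were called lower and 0 higher, with a median difference of -2.95. Most were still detected in the Pdf cells, where 29 of the 35 lay above 5 on every array. Their median level was 8.87, 8.48 and 7.56 on the Pdf arrays. The origin recognition subunit Orc2 read 3.90, 2.50 and 2.34 on the Pdf arrays against 7.83, 9.58 and 9.12, at least 14.3-fold lower. CycB3, a mitotic cyclin, was 26.1-fold lower, with every Pdf array under 9 and every Elav array above 10. fzy, an activator of the anaphase-promoting complex, was at least 22.9-fold lower. Replicative helicase subunit Mcm2 was 18.4-fold lower but above 5 on all 3 Pdf arrays, at 9.56, 8.90 and 5.88. The count was 20 without Pdf replicate 3 and 29 at most.

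Neuroblast genes moved the same way. Of 28 neuroblast identity and asymmetric division genes tested 12 were called lower and 0 higher (median -1.89). The proneural factor ase read 5.56, 3.24 and 4.57 against 8.40, 9.28 and 9.47, at least 14.5-fold lower. insc, an adaptor of asymmetric division, was 17.2-fold lower, the neuroblast factor dpn at least 15.8-fold and grh 16.2-fold. For dpn the Pdf arrays were spread widely, at 9.08, 6.24 and 4.82. Of 15 factors of temporal patterning, which mark the birth order of neurons, 5 were called lower and 2 higher, the latter 13.3%, the same share as over all genes. Syp, an RNA-binding protein made late in neuroblast lineages, was at 11.65, 11.74 and 9.25 against 13.89, 14.36 and 14.22, 9.70-fold lower. dan was at least 9.36-fold lower, and mamo, a zinc finger factor, at least 7.62-fold higher. Without Pdf replicate 3 the lower count was 3, and 4 of the 6 fits without 1 array left 1 gene higher.

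Notch pathway genes differed widely between arrays of the same group. Their median level was 10.49, 8.67 and 5.83 on Pdf replicates 1, 2 and 3, and 4.23, 4.89 and 8.12 on the Elav arrays. Of 18 tested 4 were called higher, among them E(spl)m4-BFM at 12.84, 10.35 and 8.52 and E(spl)m2-BFM at 10.43, 8.55 and 6.09, both Notch targets whose groups overlapped and whose calls were lost without Pdf replicate 1, that of E(spl)m4-BFM also without Elav replicate 1 or 2. The coactivator mam rose 5.32-fold with separate groups. neur, a ubiquitin ligase of Notch ligands, was called 6.96-fold lower. The 4 called higher were 22.2% of those tested, against 13.3% of all genes. The count of genes called higher was 12 without Pdf replicate 3, 10 without Elav replicate 3 and 2 without Pdf replicate 1.

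The largest falls included genes known only by their CG numbers and chromosome or mitosis genes. Pex7, a peroxisomal import receptor, read 7.38, 3.66 and 4.17 against 10.37, 12.82 and 12.88, at least 75.1-fold lower. CG12496, CG14545, CG9993 and CG15646 were at least 72.8-fold, 56.3-fold, 50.1-fold and 31.2-fold lower. CG14545 read under 3 on every Pdf array and above 9 on every Elav array. Chd3, a chromatin remodeller, was at least 27.8-fold lower, the helicase Pif1 at least 22.7-fold and the spindle checkpoint protein Zwilch at least 22.0-fold. CG13305 and CG16879 fell 24.8-fold and at least 24.7-fold.

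Genes of the translation and mitochondrial machinery were mostly lower or not called. Of 73 mitochondrial ribosomal protein genes 69 were tested, 31 were called lower and 0 higher, and the median difference was -1.38. Their median level was 10.07, 10.56 and 10.15 on the Elav arrays and 8.72, 8.95 and 8.82 on the Pdf arrays. mRpL18 read 5.81, 5.36 and 6.02 against 8.65, 8.55 and 8.44, a 7.03-fold difference, and mRpL11 was 6.34-fold lower, a call lost without Elav replicate 2. The count was 14 without Elav replicate 2 and 17 without Pdf replicate 1. Of the cytosolic ribosomal proteins 30 were tested, 0 were called by limma or passed an unadjusted p of 0.05, and the median was 0.22. Oxidative phosphorylation subunits had 1 rise (1.9%) and 2 falls (3.8%) among 52, and proteasome subunits 2 falls (7.7%) among 26. Over all genes tested 13.3% were called higher and 12.8% lower. Of 19 nucleolar and ribosome biogenesis genes 7 were called lower and 0 higher (median -1.52), with the RNA polymerase I subunit Polr1B at least 5.41-fold lower and Nopp140, a nucleolar phosphoprotein, 4.04-fold lower. That count was 2 without Elav replicate 2 or 3, 3 without Pdf replicate 1 or 2, and 4 without Pdf replicate 3, and Polr1B and Nopp140 were lost in 3 and 1 of these fits. Of 18 genes of glycolysis and the tricarboxylic acid cycle 2 were called higher (11.1%) and 1 lower, with a median of 0.14. Hexokinase Hex-A rose 4.72-fold, at 12.26, 12.81 and 12.64 against 11.72, 9.43 and 9.84.

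**Figure D4:**
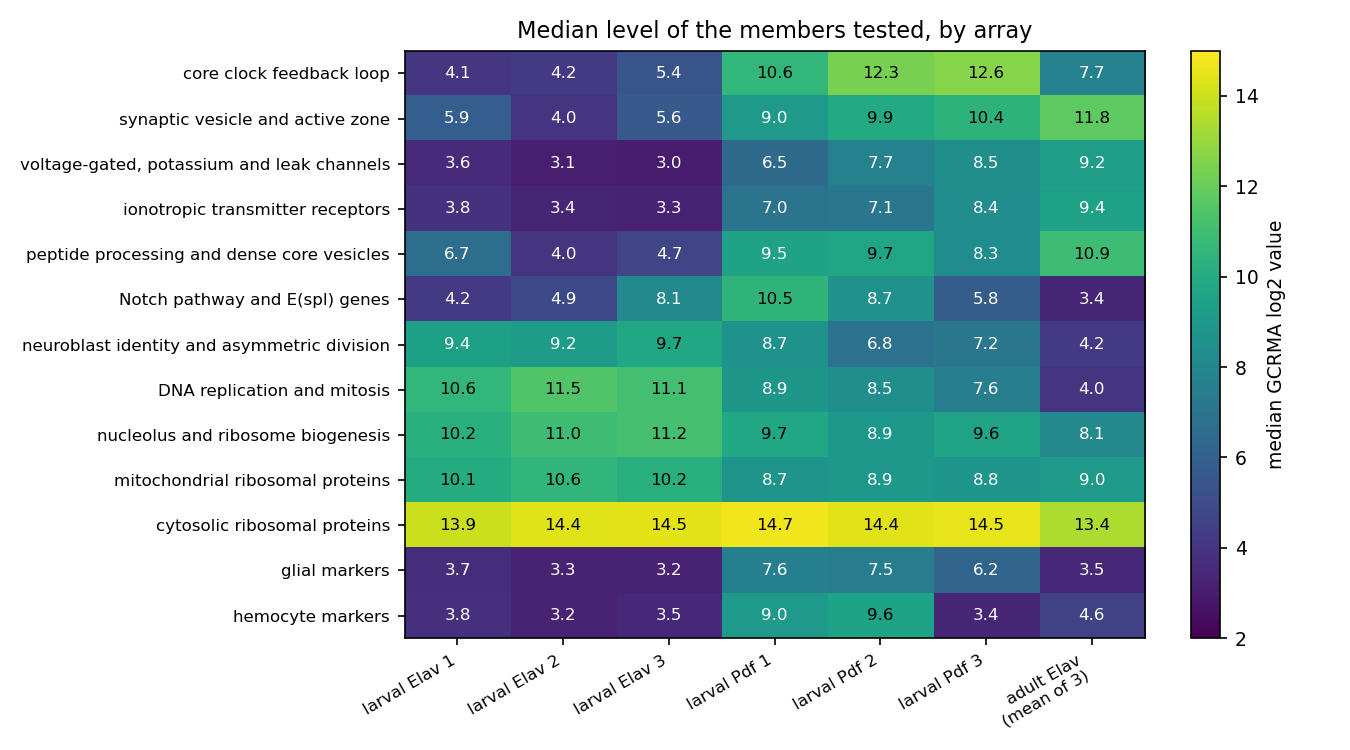
Median GCRMA log2 value of the tested members of 13 gene lists (rows) on each larval array and over the adult Elav mean (columns), with the value printed in each cell and shown by colour. Synaptic, channel and receptor lists are low on the larval Elav arrays and higher on the larval Pdf and adult Elav columns, the cell cycle list is highest on the larval Elav arrays, and the hemocyte list is high on Pdf replicates 1 and 2 alone.

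Homeobox transcription factors, which specify neuron types, showed few calls. Of 37 tested 2 were called higher and 2 lower, below the share of all genes in both directions, and the median was 0.00. toy, a fly Pax6, read 11.88, 12.62 and 13.82 against 10.77, 10.35 and 10.56, a 4.63-fold difference. pdm3 read 10.09, 10.56 and 7.25 against 8.03, 2.53 and 6.38, with overlapping groups. Dr was 5.10-fold lower. Rx, the fourth call, lay near or under detection in both groups. Without Elav replicate 2 no homeobox gene was called higher and 5 were called lower, and toy was lost there and without Pdf replicate 3, while pdm3 and Rx were each lost in 3 of the 6 fits.

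The larval comparison was then set beside adult large Pdf cells against adult Elav cells, which share no array with it. In the adult comparison 261 genes were called higher (3.4%) and 434 lower (5.66%), 9.06% in either direction. Higher in both were 70 genes, 6.88% of the larval and 26.8% of the adult list. Over all genes the shares called higher were 3.4% in the adult and 13.3% in the larva. Lower in both were 68 genes, 6.95% and 15.7%, near the 5.66% and 12.8% called lower over all genes. Of the 1017 genes higher in larval PDF neurons, 77 were called lower in the adult ones, where 5.66% of all genes were called lower. The 70 held Pdf, 7 of the 8 core clock genes, Fer2, Hr51, Irk1, kirre, toy, Sidpn and Dh31-R. With values under 5 raised to 5, Pdf differed by 9.83 in the larva and 10.20 in the adult on the log2 scale, cry by 6.15 and 6.54, Irk1 by 5.33 and 5.35, and toy by 2.21 and 2.26. The core clock gene outside the 70, cyc, was not called in the adult (0.11).

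A test of the difference of differences, larval minus adult, called 834 genes higher (10.9%) and 525 lower (6.84%), 17.7% in either direction. Among core clock genes it called tim, by 4.62 ± 0.75 (adjusted p = 0.000243), and Pdp1, by 4.25. The mean of tim was 2.93 in larval Elav and 7.91 in adult Elav cells, against 13.70 and 14.07 in the larval and adult Pdf cells. With values under 5 raised to 5 the difference for tim was 2.55, and in that fit vri was called as well, at -2.25. Synaptic genes stood apart between the ages. Their median difference was 4.76 in the larva and -0.36 in the adult, 15 of 20 were called in the test, and 0 of 20 were called higher in the adult comparison. Their median level was 5.90, 4.01 and 5.62 on the larval Elav arrays and 11.79 in adult Elav cells. The same test called 15 of 26 channel genes and 11 of 16 ionotropic receptors, all with the larval difference the higher one.

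Replication and mitosis genes gave the reverse, with 16 of 35 called in the test and a lower larval difference in each. Their median difference was 0.00 in the adult, where the median level was 4.03 in Elav cells. Of the 979 genes lower in larval PDF neurons 26.5% lay under 5 on all adult Elav arrays, against 18.2% of all genes tested. On all adult large Pdf arrays these shares were 30.5% and 22%. Of the 1017 higher genes 77.7% lay above 5 on all adult Elav arrays, against 65.5% of all genes tested. On all adult large Pdf arrays these shares were 74.4% and 59%. Transmitter genes had a median difference of 2.44 in the larva and -3.33 in the adult, or 0.86 and -2.42 with values raised to 5, and 11 of 15 were called in the test.

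**Figure D5:**
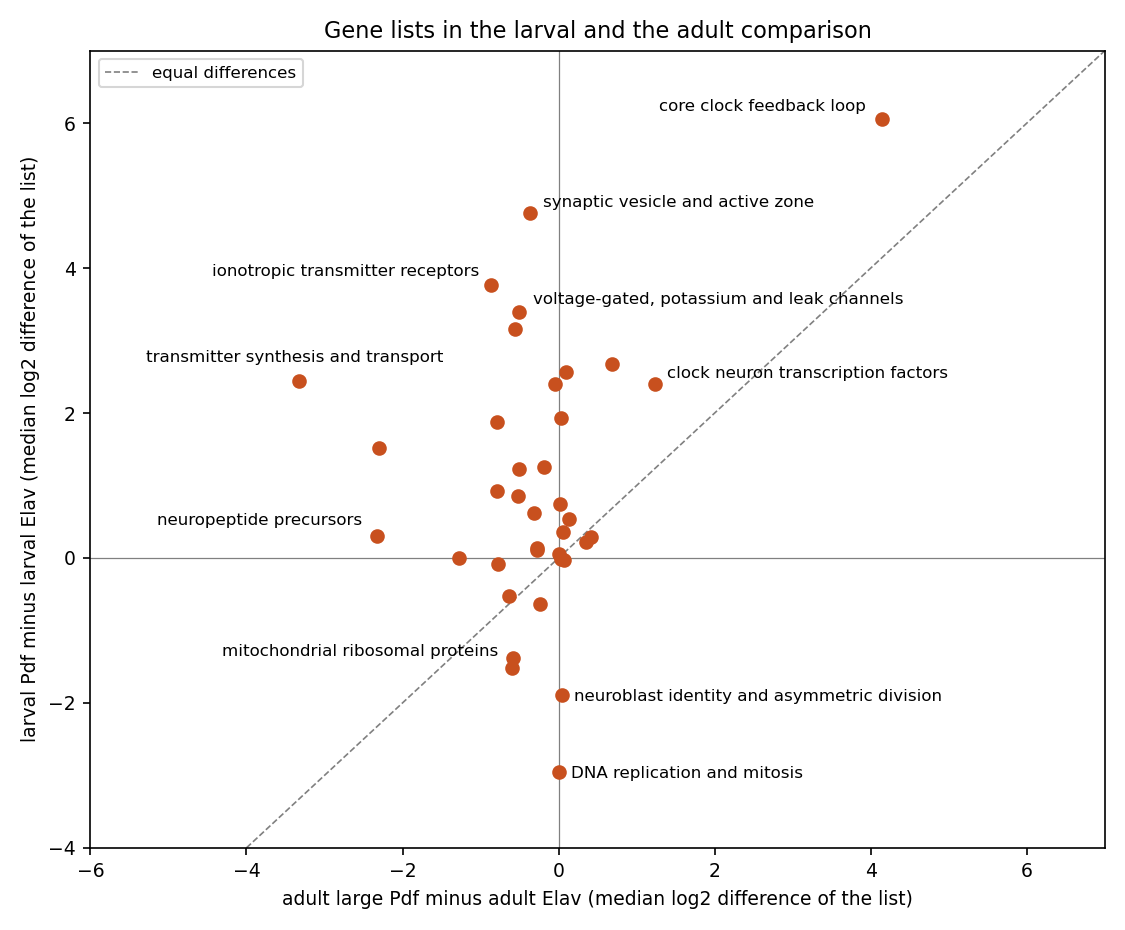
Median log2 difference of each gene list, as a point, in adult large Pdf against adult Elav (horizontal axis) and in larval Pdf against larval Elav (vertical axis), from values as deposited. The dashed line marks equal differences and 10 lists are named. The core clock list is high on both axes, and the synaptic, channel and receptor lists are high on the larval axis and near or under 0 on the adult axis.

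Against the larval Tim without Pdf cells, 1160 genes were called higher in the larval PDF neurons (15.1%) and 580 lower (7.56%). This comparison uses the same 3 Pdf arrays, so its values are given beside the earlier ones and not as separate evidence. The Tim without Pdf arrays had ring gland markers at a median of 11.88, which lay under 5 on all Pdf arrays, and 7 of 8 were called lower. With values under 5 raised to 5, Pdf differed by 9.83 on the log2 scale from these cells and from the Elav cells. On the same scale the differences from these and from the Elav cells were 3.50 and 8.70 for tim, 4.07 and 4.71 for per, 3.16 and 5.02 for Clk, 2.74 and 5.53 for vri, and 1.66 and 5.98 for Pdp1, and all 5 were called. The cry gene differed by 5.85 from the Tim without Pdf cells, Irk1 by 5.25 and Fer2 by 2.55, all called higher, as was Hr51. cyc and cwo were not called.

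Gene groups other than the clock split in this comparison. Of the channel genes 12 of 26 were higher and 0 lower, of the synaptic genes 10 of 20 higher and 1 lower, and of the ionotropic receptors 4 of 16 higher. Replication and mitosis genes, lower than in the Elav cells, were higher than in the Tim without Pdf cells for 19 of 35 members and lower for 1. Their median level was 8.87, 8.48 and 7.56 on the Pdf arrays and 5.33 in the Tim without Pdf cells. Neuroblast genes were likewise higher for 10 of 28 and lower for 0. Mitochondrial ribosomal genes had 2 higher and 2 lower calls among 69. Without the other groups in the fit this comparison called 868 genes in place of 1740, and without Tim without Pdf replicate 3 it called 1145. The share of its calls that were higher was 66.7%, and 54.2% after quantile normalisation.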

How the data were processed

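Gene expression was read from 23 one-colour Affymetrix arrays in 8 groups, of which the 3 larval Pdf and 3 larval Elav arrays are the subject. The deposited values are on a log2 scale and come from GCRMA as run by the authors, a method named in the submitters' processing notes; for its version and settings, the sources used here give nothing. Array number and the model of undetected probes limit the precision, and the amplification and background model can compress or stretch differences of low genes. No batch or scan date was used here.

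Of 18952 probe sets, 13647 matched 1 gene in the platform annotation; symbols were updated through RefSeq. Each of 11982 genes was represented by its probe set of highest mean, and the 7670 genes above 5 on at least 2 of 23 arrays were tested. That filter also keeps genes detected in a single group, so counts over list members are descriptions.

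limma 3.58.1 in R 4.3.3 fitted 1 mean for each of the 8 groups, leaving 15 residual degrees of freedom, with eBayes, two-sided. Genes were called at an adjusted p under 0.05 and at least 2-fold. The model was tested on simulated data, with 40 genes changed at each size. It called 0% of genes at a true log2 difference of 1, 20% at 2 and 35% at -2. At 4 and -4 it called 90% and 75%, and of unchanged genes 0.05%. A gene not called can therefore still differ. The simulation left 7470 genes unchanged, so its shares need not hold for the data. Members and the 37 lists were chosen with earlier results of these data known. The text names the 15 genes that rose most and the 12 that fell most among those with separate groups, up to 4 called members and the extremes of each list, the core clock genes, Pdf, elav and Fer2, and for the difference between ages the 6 highest and 6 lowest genes; repo and Nplp1 were chosen after their values were seen. Alternatives covered the samples fitted, block, filter, floor, scaling, weights, variance model, probe set choice and each replicate left out.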

Additional observations from a re-analysis of the deposited data

Results flagged for a closer look

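The difference between Pdf and Elav cells was tested for a change between larva and adult. The genes below are the highest and lowest of those called, ranked with values under 5 raised to 5, together with the core clock genes called. Values are log2 differences, larval minus adult, from limma, each followed by its size with values raised to 5, and their cause was not tested. Among the 6 highest, CG12239 stood at 15.86 ± 1.92 (SE), or 13.96, with a larval difference of 6.17 and an adult one of -7.79 after raising. On the larval Pdf arrays it read 15.34, 7.67 and 10.49, a wide spread. Arc1, a retrotransposon-derived capsid gene, stood at 12.95, or 12.26. Vmat, the vesicular monoamine transporter, stood at 15.66, or 12.13, and its mean was 15.32 in adult Elav cells, 6.80 in larval Pdf cells and under 5 in the other 2 groups. Scp2, a calcium-binding protein gene, stood at 14.17, or 11.70, and ITP at 13.10, or 11.43. Gad1 stood at 13.84, or 10.97, although it was not called in the larva, where a single Pdf array held it above 5. In all 6 the adult Elav mean was above 10 and the adult difference was negative.

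Among the 6 lowest, Pex7 stood at -7.13, or -6.23, CG12496 at -7.21, or -6.19, and CG14545 at -8.45, or -5.82. These 3 lay under 5 in both adult groups and were called lower in the larval PDF neurons. Orc1, an origin recognition gene, stood at -8.13, or -6.29, with a larval difference of -2.77 and an adult one of 3.52 after raising. mael, a gene of the piRNA pathway, stood at -8.58, with -2.23 in the larva and 3.77 in the adult after raising. CG14075 stood at -7.02, or -6.05, and lay under 5 on all 6 larval arrays. Of the core clock genes, tim stood at 4.62, or 2.55, and Pdp1 at 4.25 on either scale, both with a larger difference in the larva.

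Probe sets that carry no gene name were kept out of the comparison above. Fitted separately, 135 of 1044 such probe sets that passed the same filter were called higher in the larval Pdf cells, 12.9% of them, and 61 were called lower.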

How the results depend on the processing

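Over 12 other settings, the count of genes called between larval Pdf and larval Elav cells (1996) stayed within 1.5 times of its value except in a fit of only the groups compared, which called 1173. Leaving out 1 array gave 1294 to 1964 calls, the lowest without Elav replicate 2. The difference between larva and adult (1359 calls) stayed within 1.5 times under those settings, and ranged from 1006 to 1372 without 1 array. Against Tim without Pdf (1740 calls) only the groups compared gave 868, and leaving out 1 array gave 1145 to 1537. The cause was not tested, beyond the fewer arrays fitted. Deviations from the group means of same-numbered Pdf and Elav arrays correlated at -0.315, -0.317 and -0.05, and of differently numbered ones at -0.254 to 0.423. Within a group of 3 arrays the deviations sum to 0, so these values cannot decide whether replicate numbers pair the samples. A replicate block called 1912, 1279 and 1648 genes in the 3 comparisons. Of 134 called genes named, 93 were called in the same direction under every setting run for them, and none reversed. Some uncalled genes near 0 changed sign: wdb to -0.38 with the mean of probe sets, -1.04 with the most variable probe set and from -0.09 to 0.85 without 1 array. Without 1 array ort ran from -0.03 to 0.07, sad from -0.63 to 0.12 and Gad1 from -0.03 to 3.84. Scaling to a common median moved the median difference of all genes from -0.11 to 0.05 and the nucleolar genes called lower from 7 to 4. Values under 5 carry no order, which limits low genes.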

Other observations

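Of 12 genes of the ecdysone response tested 2 were called higher and 2 lower, 16.7% in each direction against 13.3% and 12.8% of all genes, with a median difference of 0.36. The nuclear receptor Hr3 read 5.34, 7.87 and 7.52 on the Pdf arrays and under 5 on all Elav arrays, at least 3.75-fold higher. The nuclear receptor svp read 4.42, 6.12 and 3.25 against 6.59, 8.11 and 9.14, and Eip93F, a late temporal factor, read 7.78, 10.38 and 8.64 against 12.68, 10.54 and 10.80. Both were called lower, by at least 5.96-fold and by 5.31-fold, and both calls were lost in several of the fits without 1 array, svp in 4 and Eip93F in 3.

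The 3 Pdf arrays did not rank the higher genes alike. Of the 1017 genes called higher, 496 had their lowest Pdf value on replicate 1, 313 on replicate 2 and 208 on replicate 3. Of the same genes, 61 lay under 5 on replicate 3 and above 5 on the others, 58 showed this for replicate 1 and 26 for replicate 2.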
